A study of Mus musculus with 6 samples.

Results

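The genes for the protein components of the cytosolic ribosome were followed in RNA labelled as coming from mouse tumour neutrophils, in libraries whose markers go against reading them as neutrophils alone. Members were the protein-coding genes of the deposited table whose GENCODE M21 symbol is Rpl or Rps followed by a digit, together with Rpsa, Rplp0, Rplp1, Rplp2 and Fau. The ribosomal S6 kinases and numbered pseudogenes were left out. This gave 87 of the 21959 genes in the table, and no measured value was used to choose them. By role, 43 encode proteins of the large subunit, 3 the acidic stalk, 32 the small subunit, 8 are paralogs or retrocopies of such genes, and 1, Rps19bp1, encodes a protein that is not part of the ribosome.

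The cytosolic ribosome translates messenger RNA and is built from a small subunit, which reads the message, and a large subunit, which forms the peptide bond. Its proteins are made in about equal number for assembly in the nucleolus, and their messenger RNAs are among the most abundant of a growing cell. Most of these messages begin with a run of pyrimidines at the 5′ end, the TOP motif, through which mTOR and the binding protein LARP1 control their translation and stability, while MYC promotes the transcription of ribosomal protein and assembly factor genes.

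The series holds 3 GPR35-positive and 3 GPR35-negative libraries of total RNA, all labelled as neutrophils, and its design text places the cells in Hepa1-6 tumours, which grow from an established hepatoma line of the mouse. GPR35 is a G protein-coupled receptor, and the comparison asks how the libraries labelled positive for it differed from those labelled negative. The sources used here give no mouse strain, sex or age, and do not say how the cells were divided. The labels do not tie replicates to different animals, and p-values therefore measure spread among these libraries, which may be technical.

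Values are FPKM, fragments scaled to the length of a gene’s exons and to the reads assigned in the library. Libraries held 15742744 to 18314104 reads assigned to genes, so that 1 read on a gene with 1 kb of exon was worth 0.0546 to 0.0635 FPKM. Gpr35 itself averaged 20.2 ± 1.89 FPKM in the GPR35-positive libraries and 1.57 ± 0.398 FPKM in the GPR35-negative ones (SD, n = 3 each), 3.05 higher on the log2 scale (limma adjusted p = 6.27e-09). The labelled cell type was not the only one present, and markers of hepatocytes and hepatoma cells summed to more than those of neutrophils in both groups, most of all in the GPR35-negative libraries. The 19 mature neutrophil markers summed to 10746 ± 490 FPKM in GPR35-positive libraries and 1062 ± 132 FPKM in GPR35-negative libraries (SD, n = 3 each), and all 19 were higher in the GPR35-positive group. The 15 markers of hepatocytes and hepatoma cells together reached 17245 ± 228 FPKM in GPR35-positive libraries and 26232 ± 720 FPKM in GPR35-negative libraries, with 13 lower and 1 higher. Over all 10060 genes tested, 45.5% were lower and 23.3% higher. The 14 macrophage and monocyte markers summed to 952.9 to 985.5 FPKM in GPR35-positive libraries and 37.5 to 51.0 FPKM in GPR35-negative libraries, and none was at 0 in every library. In such mixed RNA, fewer cells of a type and less RNA per cell cannot be told apart, and the part of these cell types in the ribosomal protein differences was not tested.

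The sequences around the start of the genes on which the results turn are shown because the pyrimidine run near the start is a feature that most members share. They come from the RefSeq promoter windows of GRCm38.p6, which cover 250 bases before to 50 after each annotated start and hold 67 of the 87 members. Each line gives 30 bases on the strand of the gene around the longest run of C and T found within 50 bases of the start, with that run in capitals. Where a gene had several annotated starts, the start with the longest run was taken, in members and all other genes alike. The runs of Rpl26 and Rps2 reach the edge of the searched 50 bases and may be longer than shown. Rpl26, Rpl34 and Rpl3l were higher in GPR35-positive libraries. Fau did not pass the test, and the others were lower.
Rpl26 (chr11:68901516-68901545, + strand): TCCTCTCCCCTTTCgctccgagactctcgc
Rpl34 (chr3:130730330-130730359, - strand): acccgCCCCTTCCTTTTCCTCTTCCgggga
Rpl3l (chr17:24727846-24727875, + strand): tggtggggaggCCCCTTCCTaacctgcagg
Fau (chr19:6057937-6057966, + strand): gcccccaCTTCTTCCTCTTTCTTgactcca
Rpl13 (chr8:123102324-123102353, + strand): cgtgacgtcaCTTCCCTTTCgcctgatttt
Rpl28 (chr7:4792953-4792982, + strand): cctctcgtgTCTCTCTTTCCgtctccggcc
Rps2 (chr17:24720083-24720112, + strand): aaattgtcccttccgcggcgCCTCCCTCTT
Rpl18 (chr7:45718062-45718091, + strand): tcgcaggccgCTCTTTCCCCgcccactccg
Rps4x (chrX:102189342-102189371, - strand): cgcgcagcctccgaccctaaTTTCTTCgtt
Rplp0 (chr5:115559467-115559496, + strand): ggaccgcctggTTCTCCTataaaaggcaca

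A run of at least 8 C or T on the gene strand within 50 bases of the start so chosen was present in 54 of the 67 members, 80.6%, against 39.3% of the 27025 genes in the promoter table. In Fau the run crossed the start, from position -3 to 13, and in Rpl28 from -3 to 8, whereas in Rpl26 it lay upstream, from -50 to -37. The core CTCTTTC, searched on both strands of the 300 bases and able to overlap these runs, was found in 26.9% of members and 8.21% of all genes. The ETS-type motif CCGGAAG, also searched on both strands, was found in 37.3% of members and 9.08% of all genes. CACGTG, the E-box that MYC can bind, was found in 7.46% of members and 7.04% of all genes. TATAAA was found in 8.96% of members and 14.3% of all genes. The pyrimidine run was present in members that differed in either direction, in 45 of 55 lower members with an entry, 3 of 3 higher ones and 5 of 7 that did not pass. Each match describes the letters in these windows and no more.

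Ribosomal protein genes were lower in GPR35-positive libraries across both subunits, and the median member stood at 0.75 times its GPR35-negative level. Of the 85 members that reached 1 FPKM in 3 or more libraries, 72 fell and 3 rose at an adjusted p under 0.05 by limma on log2(FPKM + 1), and 10 did not pass. Rpl10l and Rpl39l were too low to test, and 1 of the 3 that rose, Rpl3l, reached that level only through the GPR35-positive libraries. Over all 10060 genes tested by limma, 45.5% were lower and 23.3% were higher, 68.8% in all, so a fall was also the more common call in the table as a whole, while 84.7% of the members tested had one. The median log2 fold change of the 85 members was -0.41, with quartiles of -0.49 and -0.31, against a median of -0.19 over all genes tested, with quartiles of -0.39 and 0.18. In 72 of the 87 members every GPR35-positive library lay below every GPR35-negative one, in 4 every one lay above, and in 11 the groups overlapped. Of all genes tested, 48.2% lay below without overlap and 24.3% above, 72.5% in all.

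How many members were called depended on the scaling of the libraries. With median-of-ratios scaling in place of the deposited scaling, the median of all genes tested moved up by 0.16, to -0.028, the share of calls that were higher was 54.8%, against 33.9% as deposited, and 43 members were lower, all of them among the 72. Of all genes, 23.9% were then lower and 29.0% higher. The members' median was then -0.22, and 78 of 85 had a log2 fold change below 0, against 80 as deposited. Rpl26 and Rpl34 were higher under both scalings. So was Rpl3l, but it passed the minimum level only through the group where it was high. It was not tested when a GPR35-positive library was left out.

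**Figure D1:**
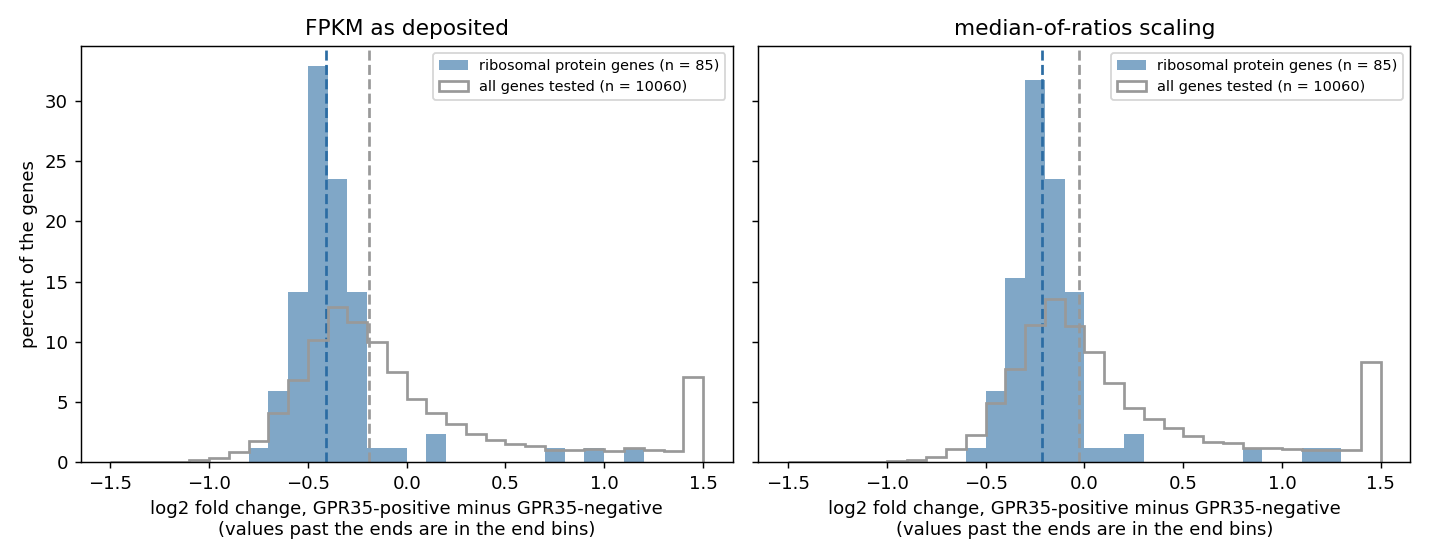
Log2 fold changes, GPR35-positive minus GPR35-negative, of the 85 ribosomal protein genes tested (filled) and of all 10060 genes tested (outline), as percent of the genes in each bin, with FPKM as deposited (left) and after median-of-ratios scaling (right); dashed lines are medians and values past the ends sit in the end bins. The median of the members lies left of the median of all genes in both panels, with values of -0.41 and -0.22.

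The summed level of all members was 13802, 14128 and 15047 FPKM in the GPR35-positive libraries, compared with 19138, 18897 and 18892 FPKM in the GPR35-negative libraries. The groups did not overlap, and the mean of 14326 ± 646 FPKM in GPR35-positive libraries was 0.755 times the mean of 18976 ± 141 FPKM in GPR35-negative libraries (SD, n = 3 each). The exact permutation test gave p = 0.1, two-sided, which is the smallest that 3 against 3 libraries allow. As a share of all summed FPKM, which does not depend on the scaling of a library, the members made up 4.10%, 4.24% and 4.45% in GPR35-positive libraries and 5.76%, 5.76% and 5.67% in GPR35-negative libraries. Counted as reads, they took 2.42%, 2.46% and 2.60% of reads in GPR35-positive libraries and 3.37%, 3.31% and 3.27% in GPR35-negative libraries. Beside these sums, the hepatocyte and hepatoma markers stood at 0.657 times their GPR35-negative sum, the pan-leukocyte markers at 10.3 times and the mature neutrophil markers at 10.1 times.

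**Figure D2:**
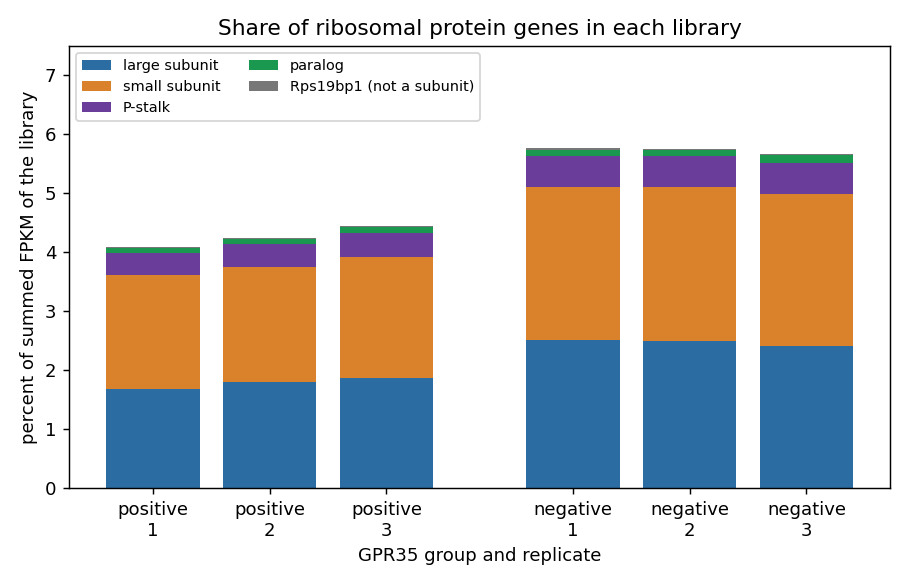
Percent of the summed FPKM of each library that came from ribosomal protein genes, stacked by role, for GPR35-positive replicates 1 to 3 (left) and GPR35-negative replicates 1 to 3 (right). The bars reach 4.10% to 4.45% in the GPR35-positive libraries and 5.67% to 5.76% in the GPR35-negative libraries.

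In the large subunit, 38 of 43 genes fell, 2 rose and 3 did not pass, and the median log2 fold change was -0.43. Beside the counts of both subunits, 45.5% of all genes tested were lower and 23.3% higher, or 23.9% and 29.0% under median-of-ratios scaling. Under median-of-ratios scaling 25 of the 43 were lower and the same number, 2, were higher. Their summed level was 5989.5 ± 349 FPKM in GPR35-positive libraries and 8188 ± 137 FPKM in GPR35-negative libraries, a ratio of 0.732. The small subunit had 27 of 32 genes lower, none higher and 5 that did not pass, with a median of -0.39, and 15 were lower under median-of-ratios scaling. Its sum was 6649 ± 245 FPKM in GPR35-positive libraries and 8610.0 ± 31.4 FPKM in GPR35-negative libraries, a ratio of 0.772. The summed level of the large subunit relative to the small subunit was 0.866, 0.92 and 0.915 in GPR35-positive libraries and 0.963, 0.953 and 0.937 in GPR35-negative libraries. These ratios did not overlap between the groups, at an exact permutation p of 0.1, the smallest possible.

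Rpl8, a large subunit protein close to the peptidyl transferase centre, fell the most. It stood at 365, 446 and 432 FPKM in GPR35-positive libraries, compared with 706, 702 and 623 FPKM in GPR35-negative libraries. All GPR35-positive libraries lay below all GPR35-negative ones, with a log2 fold change of -0.71 (SE 0.09, limma adjusted p = 7.58e-05).

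The other large subunit genes among the 8 largest falls were Rpl36, Rpl32, Rpl13, Rpl28 and Rpl18, which all encode structural proteins of that subunit. Rpl36 had 170.2, 188 and 212 FPKM in GPR35-positive libraries and 274, 304 and 325 FPKM in GPR35-negative libraries, a log2 fold change of -0.66. Rpl32 had 150.4, 170.0 and 179 FPKM in GPR35-positive libraries and 257, 254 and 257 FPKM in GPR35-negative libraries, a change of -0.62. Rpl13 had 162, 181 and 177 FPKM in GPR35-positive libraries and 264, 269 and 265 FPKM in GPR35-negative libraries, also a change of -0.62. In these 3 genes no GPR35-positive library reached the lowest GPR35-negative one, and GPR35-positive replicate 1 was the lowest of all 6 libraries in each. Rpl28 had 65.0, 73.9 and 78.7 FPKM in GPR35-positive libraries and 113, 114 and 106 FPKM in GPR35-negative libraries, a change of -0.61. Rpl18 had 60.3, 64.5 and 69.5 FPKM in GPR35-positive libraries and 101, 98.0 and 93.2 FPKM in GPR35-negative libraries, a change of -0.58. The groups were again apart in each, and the limma adjusted p of the 5 genes ran from 2.3e-05 for Rpl13 to 0.000156 for Rpl36.

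Rpl41 encodes the smallest ribosomal protein and had the highest level per length of the large subunit outside the stalk. It stood at 764, 784 and 878 FPKM in GPR35-positive libraries, compared with 1018, 1017 and 1046 FPKM in GPR35-negative libraries. The groups did not overlap, with a log2 fold change of -0.35 (limma adjusted p = 0.00196), a call that ended under median-of-ratios scaling at -0.15 (adjusted p = 0.123). Rpl5 and Rpl11, which bind 5S RNA and, when not in ribosomes, MDM2, were picked for that role after their values were seen. Rpl5 had 97.1, 100.4 and 105 FPKM in GPR35-positive libraries and 149, 139 and 112 FPKM in GPR35-negative libraries, and fell by 0.39 on the log2 scale. Rpl11 averaged 71.7 ± 3.95 FPKM in GPR35-positive libraries and 94.0 ± 8.31 FPKM in GPR35-negative libraries (SD, n = 3 each), and fell by 0.38 on that scale. Neither passed under median-of-ratios scaling, both at -0.19 (adjusted p = 0.127 for Rpl5 and 0.0695 for Rpl11). In both the highest GPR35-positive library, replicate 3, stayed below the lowest GPR35-negative one, also replicate 3.

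**Figure D3:**
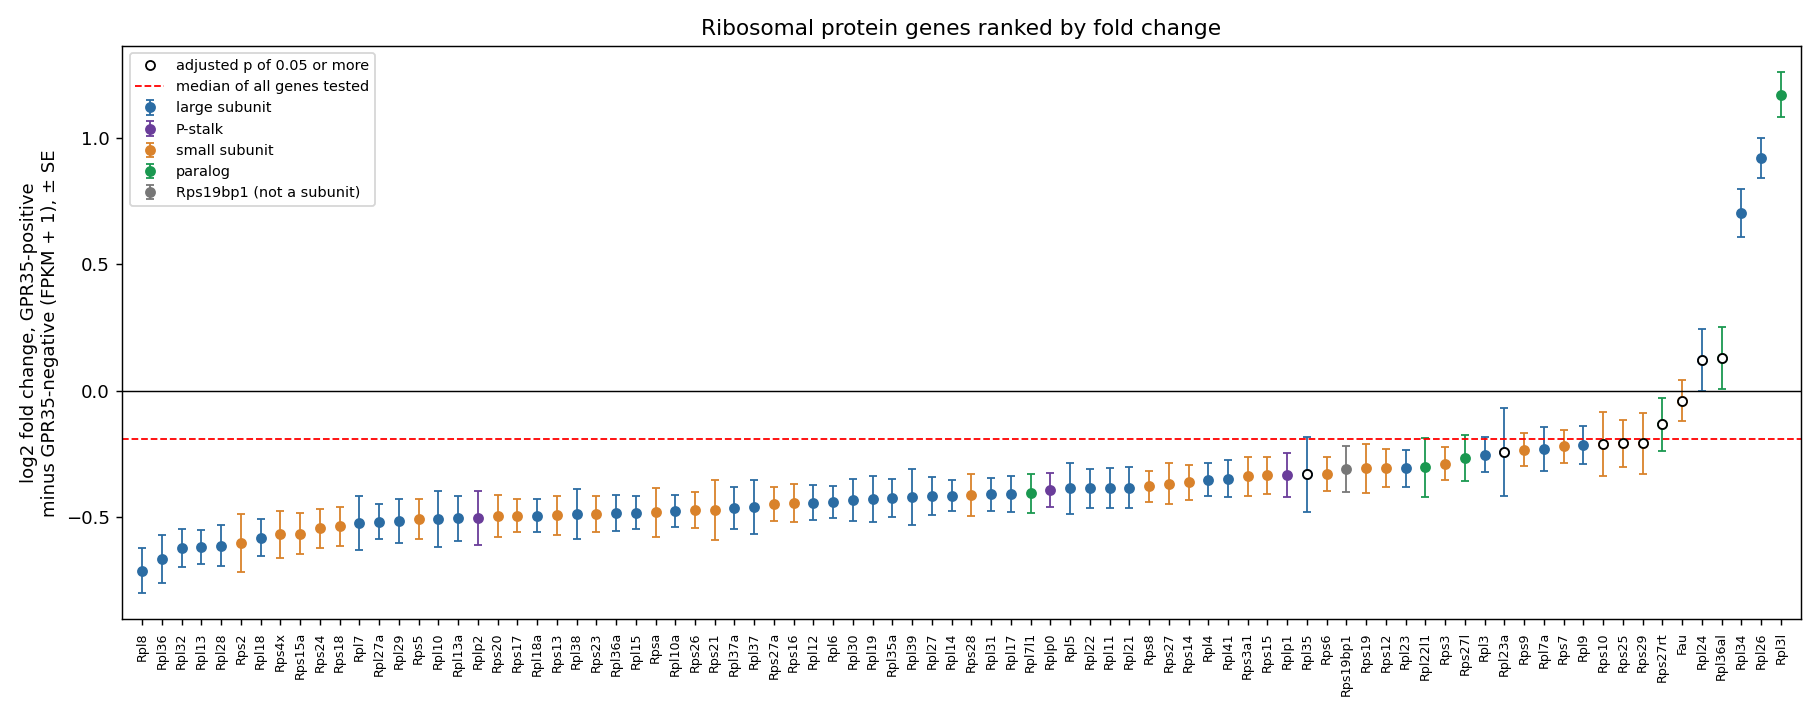
Log2 fold change, GPR35-positive minus GPR35-negative on log2(FPKM + 1), with its SE for ribosomal protein genes tested, ranked and coloured by role; open circles did not reach an adjusted p of 0.05 and the dashed line is the median of all genes tested. The genes run from -0.71 for Rpl8 to 1.17 for Rpl3l, and most lie below the dashed line at -0.19.

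Rpl26 and Rpl34 moved against the rest of the large subunit. Rpl26, whose protein sits near the exit of the peptide tunnel and in human cells binds the p53 message, stood at 52.5, 52.7 and 60.7 FPKM in GPR35-positive libraries, compared with 28.6, 27.3 and 30.3 FPKM in GPR35-negative libraries. The lowest GPR35-positive library lay far above the highest GPR35-negative one, and the means differed 1.93-fold. The log2 fold change was 0.92 (SE 0.08, limma adjusted p = 3.63e-06), on 1298, 1242 and 1604 reads in GPR35-positive and 712, 667 and 688 reads in GPR35-negative libraries. In GRCm38 the gene, ENSMUSG00000060938, occupies bases 68901583 to 68906989 of chromosome 11, forward strand.

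Rpl34, a structural protein of the large subunit, stood at 31.2, 33.5 and 37.2 FPKM in GPR35-positive libraries, compared with 21.3, 18.2 and 22.2 FPKM in GPR35-negative libraries. The groups did not overlap, and the log2 fold change was 0.70 (SE 0.09, limma adjusted p = 0.000112). It was covered by 1415, 1446 and 1802 reads in GPR35-positive and 969, 813 and 924 reads in GPR35-negative libraries. In GRCm38 the gene, ENSMUSG00000062006, occupies bases 130726831 to 130730398 of chromosome 3, reverse strand.

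Both genes stayed higher without any single library, under each scaling and with the trend on GC content and length removed. Under median-of-ratios scaling the log2 fold changes were 1.11 for Rpl26 and 0.89 for Rpl34. Of the 50-base windows of its longest protein-coding transcript, 47.4% in Rpl26 and 6.93% in Rpl34 also occurred in an annotated transcript of another gene. FPKM rests on all annotated exons, 1444 bases in Rpl26 and 2643 in Rpl34, while those transcripts hold 657 and 1232 bases, so the shares cover only part of the counted length. Values per exon were not analysed here, so whether the difference lay in the coding exons was not tested.

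**Figure D4:**
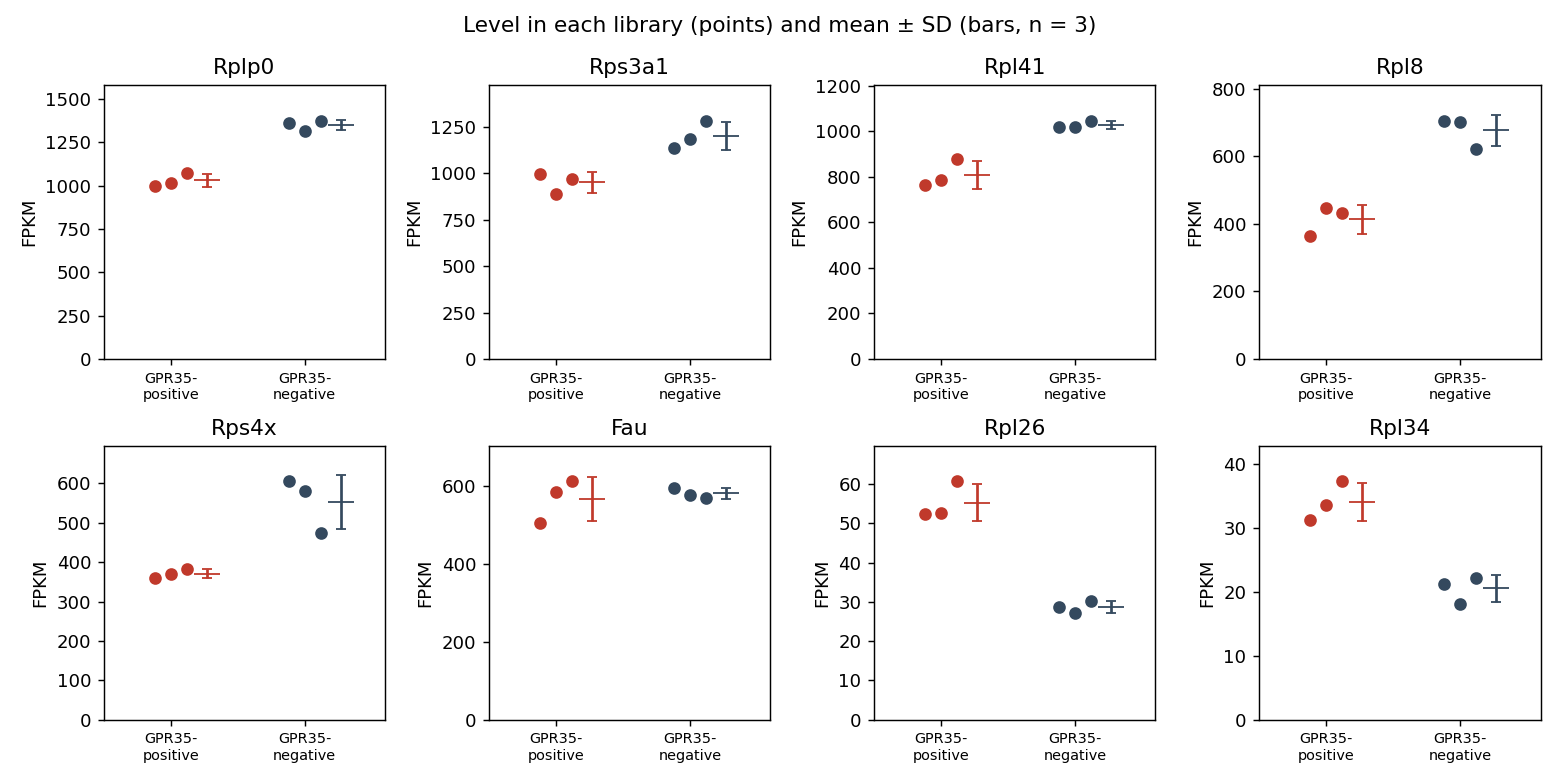
FPKM of 8 ribosomal protein genes in each library (points) with mean and SD (bars, n = 3), GPR35-positive left and GPR35-negative right in each panel, with each axis starting at 0. Rplp0, Rps3a1, Rpl41, Rpl8 and Rps4x were lower in every GPR35-positive library, Fau overlapped between the groups, and Rpl26 and Rpl34 were higher in every GPR35-positive library.

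The 3 large subunit genes that did not pass were Rpl35, Rpl23a and Rpl24. Rpl35 had 54.4, 53.7 and 69.0 FPKM in GPR35-positive libraries and 66.0, 64.2 and 95.5 FPKM in GPR35-negative libraries, with replicate 3 the highest in each group, and a log2 fold change of -0.33 (limma adjusted p = 0.0705). It passed without GPR35-positive replicate 3, at -0.45, and without GPR35-negative replicate 2, at -0.43, and with a trend on GC content and length removed, at -0.41. Rpl23a and Rpl24 were low throughout, at means of 4.42 and 1.98 FPKM over all 6 libraries, with log2 fold changes of -0.24 and 0.12. With the GC and length trend removed Rpl23a passed, at -0.53 (adjusted p = 0.00969), and Rpl24 stood at -0.10.

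All 3 genes of the acidic stalk fell, where 45.5% of all genes tested did, or 23.9% under median-of-ratios scaling. The stalk is the flexible arm of the large subunit that recruits translation factors, with Rplp0 as its base and Rplp1 and Rplp2 bound to it in pairs. Rplp0 had the highest level per length of all members, 1000.5, 1018 and 1073 FPKM in GPR35-positive libraries compared with 1362, 1317 and 1376 FPKM in GPR35-negative libraries. No library of one group came within the range of the other, and the log2 fold change was -0.39 (SE 0.07, limma adjusted p = 0.000523). Rplp1 had 164, 187 and 198 FPKM in GPR35-positive libraries and 249, 229 and 213 FPKM in GPR35-negative libraries, a change of -0.33. Rplp2 had 93.5, 92.0 and 109 FPKM in GPR35-positive libraries and 123, 135 and 162 FPKM in GPR35-negative libraries, a change of -0.50. The groups did not overlap in either, although the gap in Rplp1 was small. Rplp1 did not pass under median-of-ratios scaling, at -0.14 (adjusted p = 0.215), while Rplp0 and Rplp2 did.

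In the small subunit the genes with the largest falls were Rps2, whose protein lies at the entry of the message channel, and Rps4x, which is X-linked. Rps2 stood at 152, 173 and 153 FPKM in GPR35-positive libraries, compared with 271, 263 and 199 FPKM in GPR35-negative libraries, a log2 fold change of -0.60 (limma adjusted p = 0.001). Rps4x stood at 360.3, 369.8 and 383 FPKM in GPR35-positive libraries, compared with 605, 580.1 and 474 FPKM in GPR35-negative libraries, a log2 fold change of -0.57 (limma adjusted p = 0.000394). In both, GPR35-negative replicate 3 was the lowest of its group but still above every GPR35-positive library.

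Rps3a1, one of the proteins that contact initiation factor eIF3, had the highest level of the small subunit. It stood at 996, 887 and 966 FPKM in GPR35-positive libraries, compared with 1134, 1184 and 1282 FPKM in GPR35-negative libraries, a log2 fold change of -0.34 (limma adjusted p = 0.00303). Rps6, the substrate of the S6 kinases, stood at 590.1, 558 and 569.7 FPKM in GPR35-positive libraries, compared with 741, 732 and 687 FPKM in GPR35-negative libraries, a log2 fold change of -0.33 (limma adjusted p = 0.00143). The groups of both were apart, but neither passed under median-of-ratios scaling, at -0.14 for Rps3a1 and -0.13 for Rps6. Rpsa, the small subunit protein also known as the laminin receptor, and Rps27a, made as a fusion with ubiquitin, were named after their values were seen and fell by 0.48 and 0.45 on the log2 scale.

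Fau, which encodes a small subunit protein fused to a ubiquitin-like protein, was the most abundant member that did not pass. It stood at 505, 587 and 613 FPKM in GPR35-positive libraries, compared with 597, 578 and 571 FPKM in GPR35-negative libraries. The groups overlapped, since GPR35-positive replicate 3 was the highest and GPR35-positive replicate 1 the lowest of all 6 libraries. Means were 568 ± 56.3 FPKM in GPR35-positive and 582 ± 13.4 FPKM in GPR35-negative libraries, with a log2 fold change of -0.039 (SE 0.08, limma adjusted p = 0.679). The sign was not fixed by the data, at 0.16 under median-of-ratios scaling and 0.043 without GPR35-positive replicate 1.

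Other small subunit genes that did not pass included Rps25, Rps29 and Rps10, all with log2 fold changes of -0.21. Their limma adjusted p was 0.0716 for Rps25, 0.147 for Rps29 and 0.158 for Rps10. Rps29 passed without GPR35-positive replicate 3, at -0.32, and with the GC and length trend removed, at -0.50. Rps25 passed without GPR35-negative replicate 3, at -0.29, with that trend removed and with scaling that leaves out mitochondrial and the top 50 genes, both at -0.23. Rps10 passed without GPR35-negative replicate 1, at -0.33. Near the threshold on the other side, Rpl7a, at -0.23 (adjusted p = 0.0379), and Rpl9, at -0.21 (adjusted p = 0.0276), each lost the call when GPR35-positive replicate 2, GPR35-negative replicate 1 or GPR35-negative replicate 2 was left out; Rpl7a also lost it without GPR35-positive replicate 3, and Rpl9 without GPR35-positive replicate 1. Rps19 lost its call without GPR35-positive replicate 2. None of these 3 passed under median-of-ratios scaling, at -0.037 for Rpl7a, -0.018 for Rpl9 and -0.11 for Rps19.

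The paralogs, which several tissues use in place of or beside the usual protein, had 3 genes lower, 1 higher and 2 not passed among the 6 tested. Over all genes tested 45.5% were lower and 23.3% higher, so the 50% of paralogs lower lay near that share. Under median-of-ratios scaling 1 was lower and 1 higher, beside 23.9% and 29.0% of all genes tested. Rpl3l, the form of Rpl3 known from heart and skeletal muscle, stood at 1.67, 1.71 and 1.93 FPKM in GPR35-positive libraries, compared with 0.247, 0.108 and 0.348 FPKM in GPR35-negative libraries. The groups were far apart, at 47, 46 and 58 reads in GPR35-positive libraries and 7, 3 and 9 reads in GPR35-negative libraries, a 7.56-fold difference of means. The log2 fold change on log2(FPKM + 1) was 1.17 (SE 0.09, limma adjusted p = 1.28e-06). The gene passed the minimum level only through the GPR35-positive libraries, and none of the 50-base windows of its longest protein-coding transcript occurred in another gene’s transcripts. Rpl3 itself stood at 265, 269 and 270.4 FPKM in GPR35-positive libraries and 341, 321 and 298 FPKM in GPR35-negative libraries, and fell by 0.25 on the log2 scale, a call that ended under median-of-ratios scaling at -0.056 (adjusted p = 0.514). The muscle form was under 1% of its level in every library.

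Rpl39l, known from testis, was too low to test, with 7, 4 and 3 reads in GPR35-positive libraries and 0, 1 and 1 reads in GPR35-negative libraries. Its groups did not overlap, and GPR35-positive replicate 3 was the nearest to the GPR35-negative group. Rpl10l, also known from testis, was listed at 0 in all 6 libraries.

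Rps27l, a paralog of Rps27 that p53 can induce, was the most abundant paralog at 250.3, 218 and 249.9 FPKM in GPR35-positive libraries, compared with 269, 270.4 and 324 FPKM in GPR35-negative libraries. The groups did not overlap, at a log2 fold change of -0.26 (limma adjusted p = 0.0251). This call ended without GPR35-positive replicate 2, at -0.20, without GPR35-negative replicate 3, at -0.18, and under median-of-ratios scaling, at -0.067. Rps27 stood at 122, 135 and 150.2 FPKM in GPR35-positive libraries and 171, 173 and 179 FPKM in GPR35-negative libraries. The paralog thus had the higher deposited FPKM in all 6 libraries. However, 63.1% of the windows of Rps27 were found in other transcripts, against 13.7% of those of Rps27l. Reads of Rps27 may therefore have been split or lost, and which of these genes had more RNA was not tested. Rps27rt, a retrocopy of Rps27 with 91.1% of its windows found in other transcripts, averaged 17.5 ± 1.43 FPKM in GPR35-positive libraries and 19.4 ± 2.63 FPKM in GPR35-negative libraries (SD, n = 3 each). Its groups overlapped, and it did not pass at -0.13 (adjusted p = 0.277), or at 0.056 under median-of-ratios scaling.

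Rpl7l1, a paralog of Rpl7, stood at 37.4, 35.9 and 40.3 FPKM in GPR35-positive libraries, compared with 54.1, 49.6 and 47.7 FPKM in GPR35-negative libraries, a log2 fold change of -0.41 (limma adjusted p = 0.000955). The groups were apart, as they were for Rpl7, which had 142, 159 and 158 FPKM in GPR35-positive libraries and 248, 232 and 185 FPKM in GPR35-negative libraries. Rpl22l1, a paralog of the RNA-binding Rpl22, had 19.7, 18.9 and 24.7 FPKM in GPR35-positive libraries and 24.1, 24.4 and 30.3 FPKM in GPR35-negative libraries. Its groups overlapped through GPR35-positive replicate 3, and the call at -0.30 (limma adjusted p = 0.0401) ended without GPR35-positive replicate 1, GPR35-positive replicate 2 or GPR35-negative replicate 3, at -0.26, -0.23 and -0.20, as well as under median-of-ratios scaling, at -0.11 (adjusted p = 0.454), and with no filter (adjusted p = 0.0998). Rpl22 had 26.5, 28.5 and 29.4 FPKM in GPR35-positive libraries and 34.6, 36.7 and 40.0 FPKM in GPR35-negative libraries, a log2 fold change of -0.39, which did not pass under median-of-ratios scaling, at -0.19 (adjusted p = 0.0673).

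Rpl36al, a copy of Rpl36a, had 1.94, 2.17 and 2.34 FPKM in GPR35-positive libraries and 1.76, 1.48 and 2.49 FPKM in GPR35-negative libraries. The groups overlapped, with GPR35-negative replicate 3 the highest of all 6, and it did not pass at 0.13 (adjusted p = 0.365), although it did without that library, at 0.27. Another annotated gene, Gm49383, overlaps Rpl36al on the same strand and is in the deposited table. Whether this affected the level of Rpl36al was not tested. Rpl36a had 73.4, 76.7 and 85.0 FPKM in GPR35-positive libraries and 108, 109 and 112 FPKM in GPR35-negative libraries, a fall of 0.48 on the log2 scale. Rpl39, the usual form of Rpl39l, had 28.7, 37.5 and 39.2 FPKM in GPR35-positive libraries and 48.6, 49.0 and 43.2 FPKM in GPR35-negative libraries, a fall of 0.42 on that scale that did not pass under median-of-ratios scaling, at -0.23 (adjusted p = 0.115).

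The ratio of paralog to usual form could be taken in every library for 5 pairs. For Rpl3l over Rpl3 it was 0.0063, 0.00637 and 0.00713 in GPR35-positive libraries and 0.000724, 0.000335 and 0.00117 in GPR35-negative libraries. For Rpl36al over Rpl36a it was 0.0265, 0.0283 and 0.0275 in GPR35-positive libraries and 0.0162, 0.0136 and 0.0223 in GPR35-negative libraries. Both ratios were higher in every GPR35-positive library, with an exact permutation p of 0.1, the smallest possible, and 0.25 adjusted over the 5 pairs. The ratios overlapped between the groups for Rpl7l1, at 0.248 ± 0.0201 in GPR35-positive and 0.23 ± 0.0247 in GPR35-negative libraries, for Rpl22l1, at 0.749 ± 0.0895 in GPR35-positive and 0.706 ± 0.0469 in GPR35-negative libraries, and for Rps27l, at 1.78 ± 0.24 in GPR35-positive and 1.65 ± 0.142 in GPR35-negative libraries (SD, n = 3 each). Their adjusted p by exact permutation ran from 0.5 to 0.7. Reads of the usual forms Rpl3, Rpl36a, Rps27 and Rpl7 may have been split or lost through shared sequence. Of their windows 85.6%, 85.5%, 63.1% and 53.3% were found in other transcripts, as were 57.3% of those of the paralog Rpl22l1. Rpl36al is also overlapped on its strand by a gene of the deposited table. How far this moved the ratios was not tested.

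Rps19bp1, which the symbol rule includes although its protein binds the small subunit protein Rps19 and the deacetylase SIRT1, stood at 58.3, 51.3 and 57.6 FPKM in GPR35-positive libraries, compared with 64.0, 65.7 and 78.5 FPKM in GPR35-negative libraries. The groups did not overlap, with a log2 fold change of -0.31 (limma adjusted p = 0.0121), which did not pass under median-of-ratios scaling at -0.11 (adjusted p = 0.334).

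Members differed far more in level than in fold change. Among the 78 genes of the subunits and stalk, Rps10 was the lowest, at 1.41 ± 0.326 FPKM in GPR35-positive and 1.79 ± 0.387 FPKM in GPR35-negative libraries, and Rplp0 the highest, at 1191 FPKM over all 6 libraries, although the ribosome holds about equal numbers of the proteins. The lowest after Rps10 were Rpl24 at 1.98 FPKM, Rpl13a at 2.42 FPKM, Rpl23a at 4.42 FPKM and Rps12 at 14.4 FPKM, and from Rps10 to Rps12 51.8%, 81.7%, 57.4%, 82.6% and 83.2% of 50-base windows occurred in another annotated transcript. An annotated gene other than a snoRNA or miRNA overlapped Rps10, Rpl24 and Rpl13a on the same strand. The overlapping gene was in the deposited table for Rps10 and Rpl13a, but not for Rpl24. Rpl13, Rpl19 and Rpl3, which were not low, also had such an overlap, with genes that were not in that table. Whether these overlaps affected the levels was not tested. Over all subunit and stalk genes, the median level was 84.4 FPKM in 20 genes with under 30% of windows shared, 135 FPKM in 36 genes with 30% to 60%, and 213 FPKM in 22 genes with 60% or more. These classes hold different genes, so they do not show whether reads of a given gene were lost, which was not tested. The median log2 fold changes of these classes were -0.40, -0.43 and -0.41. Among the 49 members with a mean over 100 FPKM, 46 fell and 3 did not pass. The share lower was 93.9%, beside 84.7% of all members tested and 45.5% of all genes tested. With the filter of 5 FPKM, 52.2% of all genes tested were lower. A share for all genes over 100 FPKM was not taken.

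Across the 85 members tested, Spearman's rho of the log2 fold change was -0.16 with exon length, 0.067 with GC content, -0.26 with mean level and -0.031 with the share of windows found elsewhere. These describe the same 6 libraries, and genes are not independent replicates. The members lay on 20 chromosomes, with at most 14 on one, and 30 of them held 58 annotated snoRNA genes on the same strand, as ribosomal protein genes often host such RNAs in their introns. Of these 30 host genes, 28 were lower, beside 84.7% of all members tested and 45.5% of all genes tested.

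Within the GPR35-positive group the members tended to shift together. Of the 78 subunit and stalk genes, 57 were highest in replicate 3 and 53 lowest in replicate 1 of the GPR35-positive group. Spearman's rho of their log2 deviation from the group mean with exon length was -0.40 in replicate 3 and 0.25 in replicate 1. With GC content it was 0.22 and -0.24. The same counts over all genes were not taken, so the shift may not be particular to these members. In the GPR35-negative group no library stood so, but replicate 3 was the highest in 32 and the lowest in 38 genes, and its deviations had the largest SD of the 6 libraries, 0.132 on the log2 scale. The median coefficient of variation of a member was 6.52% in GPR35-positive and 6.40% in GPR35-negative libraries.

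Other genes of ribosome production were compared by lists. Beside their counts stand the shares over all genes tested, 45.5% lower and 23.3% higher, or 23.9% and 29.0% under median-of-ratios scaling. Of 40 ribosome biogenesis factors, 33 fell, none rose and 7 did not pass. The median log2 fold change was -0.38, and 18 were lower and 1 higher under median-of-ratios scaling. Tcof1, the nucleolar factor treacle, stood at 10.2 ± 0.38 FPKM in GPR35-positive and 16.3 ± 0.329 FPKM in GPR35-negative libraries, a log2 fold change of -0.63. Gar1, of the snoRNPs that convert uridine to pseudouridine, stood at 25.1 ± 2.96 FPKM in GPR35-positive and 45.6 ± 5.43 FPKM in GPR35-negative libraries, a log2 fold change of -0.84. Nob1, the nuclease that ends 18S RNA processing, and Eif6, which keeps new large subunits from joining early, had log2 fold changes of -0.55 and -0.48. These 4 had the smallest p of the list and were also lower under median-of-ratios scaling.

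Among 16 other genes with TOP messages, 13 fell, 1 rose and 2 did not pass, with a median of -0.36, and 6 were lower and 1 higher under median-of-ratios scaling. The elongation factor gene Eef2 stood at 143 ± 15.9 FPKM in GPR35-positive and 227 ± 24.8 FPKM in GPR35-negative libraries, a log2 fold change of -0.66. Eif3h and Eif3f, subunits of the initiation factor eIF3, had log2 fold changes of -0.54 and -0.57. Eef1d, a subunit of the exchange factor of eEF1A, was the one that rose, at 4.38 ± 0.277 FPKM in GPR35-positive and 1.14 ± 0.00623 FPKM in GPR35-negative libraries (1.33 on the log2 scale, limma adjusted p = 1.88e-07).

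Translation factors not in that list were more mixed. Of 27 genes, 14 fell, 4 rose and 9 did not pass, with a median of -0.19 as for all genes tested, and under median-of-ratios scaling 5 were lower and 6 higher. The share of all genes that fell was 45.5%. Eif5, which triggers GTP hydrolysis at the start codon, stood at 144 ± 7.87 FPKM in GPR35-positive and 93.3 ± 8.20 FPKM in GPR35-negative libraries, a rise of 0.62 on the log2 scale. The eIF3 subunit genes Eif3c, Eif3m and Eif3d had log2 fold changes of -0.57, -0.44 and -0.52.

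Of the regulators around mTOR, LARP1, MYC and the S6 kinases, 19 of 21 could be tested, of which 8 fell, 4 rose and 7 did not pass, with a median of -0.16. Under median-of-ratios scaling 6 were lower and 5 higher. These counts stood beside 45.5% of all genes lower as deposited and 23.9% under that scaling. Myc stood at 211 ± 6.58 FPKM in GPR35-positive and 336 ± 23.9 FPKM in GPR35-negative libraries, a log2 fold change of -0.67 (limma adjusted p = 2.12e-05). Rps6ka2, a kinase of the RSK family, stood at 11.3 ± 0.734 FPKM in GPR35-positive and 1.10 ± 0.0861 FPKM in GPR35-negative libraries, a rise of 2.55 on the log2 scale (limma adjusted p = 2.46e-09). Akt1s1, an inhibitory subunit of the mTOR complex, and Tsc2, which holds mTOR in check through the GTPase Rheb, had log2 fold changes of -0.69 and -0.80.

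In ribosome quality control 5 of 9 genes tested fell, none rose and 4 did not pass, with a median of -0.29, and 2 were lower under median-of-ratios scaling. Of all genes tested, 45.5% were lower as deposited and 23.9% under that scaling. Usp10, a deubiquitinase of small subunit proteins, had the smallest p, at 15.4 ± 0.419 FPKM in GPR35-positive and 25.6 ± 0.959 FPKM in GPR35-negative libraries, a log2 fold change of -0.70. Rnf10, a ubiquitin ligase of small subunit proteins, G3bp1, a partner of Usp10, and Zfp598, the ligase that senses collided ribosomes, had log2 fold changes of -0.84, -0.34 and -0.30. For comparison, the hepatocyte and hepatoma markers had a median of -0.60, and Afp, alpha-fetoprotein, stood at 450.3 ± 9.74 FPKM in GPR35-positive and 686 ± 49.7 FPKM in GPR35-negative libraries.

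**Figure D5:**
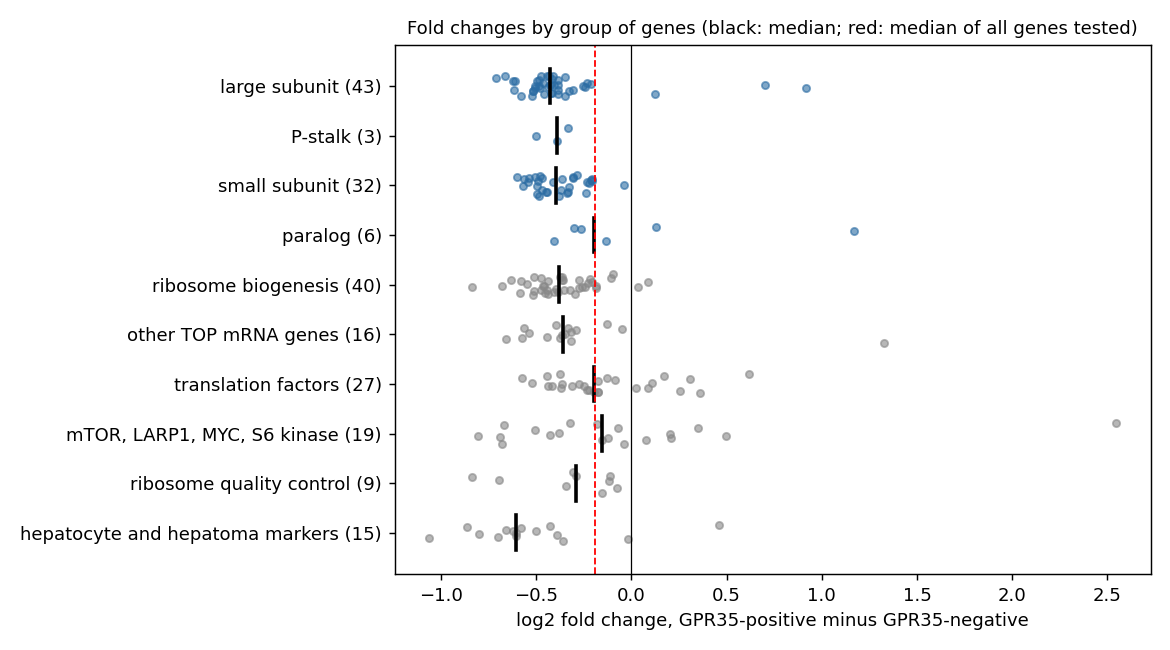
Log2 fold changes, GPR35-positive minus GPR35-negative, of each gene tested (points, spread vertically for sight) in the roles of the ribosomal proteins (blue) and in the compared lists (grey), with the number of genes in brackets; black bars are medians and the red dashed line is the median of all genes tested. The large subunit, stalk and small subunit have medians of -0.43, -0.39 and -0.39, the biogenesis factors -0.38 and the hepatocyte and hepatoma markers -0.60.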

How the data were processed

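RNA of 6 libraries, 3 GPR35-positive and 3 GPR35-negative, grouped and numbered by their titles, was compared. Trizol was used for total RNA and the NEBNext Ultra II kit for the libraries, per the labels' protocols. Per the file headers, the authors' values are FPKM, in a single table. HTSeq 0.9.1, DESeq 1.38.3, fastp 0.22.0 and HISAT2 2.1.0 are listed in the submitters' processing notes with no roles, beside GRCh38, a human build, although the gene IDs are those of mouse. The annotation and the use of strand are not given in the sources used here, so reads of near-identical copies, overlapping and antisense genes may have been split or lost.

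Symbols, positions and exon lengths came from GENCODE M21 on GRCm38, which held 21902 of 21959 IDs. With those lengths, 97.7% of nonzero values were whole numbers of reads to within 0.02, as did all values of the 87 members, and the library totals were read from these steps. No replicates were duplicates: their counts differed beyond sampling noise (mean chi-square 5.57 to 23.1 a gene).

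Groups were compared with limma-trend (limma 3.58.1, R 4.3.3) on log2(FPKM + 1), two-sided, for genes that reached 1 FPKM in 3 or more libraries, with Benjamini-Hochberg adjustment over the 10060 genes tested at 0.05. All adjusted p-values are from it unless a permutation test is named. Log2 fold changes are GPR35-positive minus GPR35-negative on that scale, where changes of low genes come out too small. Levels are means ± SD of FPKM. Sums and ratios were compared by exact permutation, two-sided. The test was checked on simulated data.

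Members, lists and tests were chosen with earlier results of these data known, and some genes named as such after their values were seen. Named genes were Gpr35, up to 8 largest rises and falls past the threshold, paralogs with their usual forms, the 6 highest members, Rps19bp1 and up to 4 genes of each list with the smallest p. Alternatives were a pseudocount of 0.1, no filter, a filter of 5 FPKM, limma-voom on the recovered reads, median-of-ratios scaling, scaling that leaves out mitochondrial and the top 50 genes, a replicate block, removal of a trend on GC content and length, and leaving out each library. The motif searches used the RefSeq promoter table and Python 3.11.15 with numpy 2.4.6, pandas 2.3.3 and scipy 1.17.1. A few genes that the rules take are not reported here. All 6 value columns were used, and matplotlib 3.10.9 drew the figures.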

Additional observations from a re-analysis of the deposited data

How the results depend on the processing

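The lower level of the ribosomal protein genes kept its direction under every alternative tried, with a median log2 fold change between -0.22 under median-of-ratios scaling and -0.50 with the GC and length trend removed, but the number called did not. Median-of-ratios scaling gave 43 members lower against 72 and 2401 genes lower in all against 4575, and a summed level in GPR35-positive libraries of 0.866 times that in GPR35-negative libraries against 0.755; 67 to 74 members were lower when a library was left out. The 5 FPKM filter gave 1434 of 6231 genes tested higher, against 2342 of 10060, a lower count from fewer genes tested. The median of the members minus that of all genes was -0.22, and became -0.41 with no filter, -0.31 with the GC and length trend removed and -0.16 to -0.24 when a library was left out, with -0.16 without GPR35-positive replicate 1. The members' share of summed FPKM was lower by 1.47 percentage points (-1.47), which became -2.05 with mitochondrial and the 50 most abundant genes out of the denominator and -1.22 without the 3 highest members. The log2 ratio of Rpl3l to Rpl3 differed by 3.33, or by 1.42 with 1 FPKM added to both. When a library was left out, the difference ran from -0.00495 to 0.17 for Rpl22l1 over Rpl22, below 0 without GPR35-positive replicate 3, and from -0.00414 to 0.17 for Rps27l over Rps27, below 0 without GPR35-positive replicate 1. Of single genes that did not pass, Fau turned to 0.16 under median-of-ratios scaling and to 0.043 without GPR35-positive replicate 1, Rps27rt to 0.056 under that scaling, and Rpl24 to -0.10 and Rpl36al to -0.045 with the GC and length trend removed. With that trend removed Rps27rt passed at -0.61. The cause of these changes was not tested. The replicate numbers did not clearly pair the samples. Deviations of same-numbered libraries correlated at -0.00177, 0.400 and -0.0642. Replicate 1 of each group correlated best with replicate 3 of the other group, while replicate 2 correlated best with replicate 2. Each correlation rests on 1 pair of libraries, so they cannot exclude a pairing. With a replicate block, 75 members were lower, with Rpl35 and Rps29 among those gained (adjusted p = 0.00385 and 0.0183), and 3 higher, and 4633 genes were lower and 2365 higher in all. Depth limits Rpl3l, Rpl39l and other members with few reads, and the reads of members with near-identical copies cannot be assigned with certainty.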

Other observations

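Markers of some other cell types had low sums. Their counts stand beside 45.5% of all genes tested lower and 23.3% higher. The 6 fibroblast markers summed to 20.4 ± 3.32 FPKM in GPR35-positive and 13.4 ± 2.27 FPKM in GPR35-negative libraries (SD, n = 3 each), and all 4 genes tested rose. The T and NK cell markers summed to 60.2 ± 1.03 FPKM in GPR35-positive and 80.7 ± 9.14 FPKM in GPR35-negative libraries, with 4 of 8 genes tested lower, led by Gzma, the cytotoxic granule protease granzyme A, at 6.58 ± 0.181 FPKM in GPR35-positive and 14.5 ± 1.19 FPKM in GPR35-negative libraries. Endothelial markers summed to 13.8 ± 0.63 FPKM in GPR35-positive and 15.2 ± 0.816 FPKM in GPR35-negative libraries, with 2 of 4 tested lower and 2 higher.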
